A study of Homo sapiens with 35 samples.

Results

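Lamina contacts were described for the type I interferon genes of the short arm of chromosome 9 and for their neighbours MTAP, CDKN2A and CDKN2B. The interferon region was taken by position as the 5 bins of 100 kb at 21000001 to 21500000 of the chromosome given as 9:22, which hold IFNB1, IFNW1, IFNA1 and IFNA2. It was compared with the 4 bins at 21800001 to 22200000 (MTAP, CDKN2A, CDKN2B), with the 20 bins of the 2 Mb below (19000001 to 21000000) and with the 20 bins of the 2 Mb above (22200001 to 24200000). The 3 bins left between the gene regions (21500001 to 21800000) were described as well. All 52 of these bins had a value in every cell, out of 1350 such bins on 9:22 and 26584 in the genome. Positions of bins are those of build hg19, counted from 1, and "below" and "above" refer to lower and higher positions.

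The cells were single KBM7 cells of clone 5-5, a human leukaemia line labelled diploid (2N), with 1 group and no control cells. The fusion of Dam to lamin B1, a filament protein lining the inner nuclear envelope, methylates GATC sites of nearby DNA, and it was induced with 0.5 nM Shield1 for 15 h. The smallest 2% of cells that carried both Fucci markers of the cell cycle were then sorted singly. KBM7 carries a translocation between chromosomes 9 and 22, and the 52 bins lie on the short arm of chromosome 9. For a bin in 1 cell the observed reads are divided by those expected (OE), and an OE of 1 or more was counted as a contact. A contact can come from either chromosome copy and from any time during those 15 h. Cells of 1 clone are the replicates, so tests measure the spread between cells of this clone.

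The labels list 35 samples, of which 32 had a column. Reads recovered per cell ranged from 985 to 258225 with a median of 120164. Cells 13, 15 and 17 had at most 1755 reads, and the other 29 had at least 40279. None of the 3 shallow cells had a contact in the interferon bins, in the bins between or in the MTAP, CDKN2A and CDKN2B bins.

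Type I interferons are secreted antiviral cytokines that act through a common receptor. IFNB1 and the alpha interferons are induced when a cell senses viral nucleic acid, through IRF factors that bind their promoters, and they are silent in most resting cells. MTAP, an enzyme of methionine salvage, is broadly expressed, and CDKN2A and CDKN2B encode inhibitors of the cell-cycle kinases CDK4 and CDK6. Chromatin at the nuclear lamina is for the most part gene-poor or silent.

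In the gene order of RefSeq (GRCh38.p14), which was used for order and names only, 16 protein-coding interferon genes follow each other from IFNB1 to IFNE, 13 of them alpha interferons. IFNB1 and IFNW1 come first, on the side of FOCAD. IFNA2 and IFNA1 come late, and IFNE comes last, on the side of MTAP. KLHL9, an adaptor of a ubiquitin ligase, is the only other protein-coding gene between IFNB1 and IFNE. No protein-coding gene lies between IFNE and MTAP in that table, where MIR31 is annotated.

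The promoters of the compared genes are shown because they differ in composition and because the assay reads GATC. The composition and the GATC sites of the 100-kb bins were not measured. RefSeq promoters of GRCh38.p14 matched 13 of the 16 interferon genes and all of MTAP, CDKN2A and CDKN2B, and they were not used to place genes in bins. In the 250 bases upstream of the start, the interferon promoters had a GC content of 29.6 to 38.0%, with a median of 32.4%, against 50.0 to 66.8% in the 4 promoters of MTAP, CDKN2A (2 starts) and CDKN2B. The median over 35116 promoters was 58.0%. The motif AANNGAAA, the core of IRF sites, was searched on both strands, and matches that overlap each other were counted separately. It was found in 11 of the 13 interferon promoters and in none of those 4, against 20.3% of all promoters. GATC was found in 1 of the 13 and in 3 of the 4, against 35.8% of all promoters. The alpha interferon genes are close copies, so their promoters are not independent. The first 3 sequences, 5′ to 3′, are of interferon members, with AANNGAAA on either strand in capitals. IFNB1 holds 2 matches, IFNA1 holds 2 that overlap, and the letters were not found in this window of IFNA2.
IFNB1 (chr9:21077943-21078192, minus strand): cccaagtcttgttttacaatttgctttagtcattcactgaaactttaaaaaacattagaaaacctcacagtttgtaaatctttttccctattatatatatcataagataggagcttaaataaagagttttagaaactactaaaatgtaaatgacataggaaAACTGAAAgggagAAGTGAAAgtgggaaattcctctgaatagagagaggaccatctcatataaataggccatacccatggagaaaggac
IFNA2 (chr9:21385399-21385648, minus strand): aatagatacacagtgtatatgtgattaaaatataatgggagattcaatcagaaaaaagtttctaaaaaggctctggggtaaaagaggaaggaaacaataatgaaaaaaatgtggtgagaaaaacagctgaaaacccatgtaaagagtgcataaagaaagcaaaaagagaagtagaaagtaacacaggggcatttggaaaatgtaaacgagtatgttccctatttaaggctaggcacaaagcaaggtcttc
IFNA1 (chr9:21440189-21440438, plus strand): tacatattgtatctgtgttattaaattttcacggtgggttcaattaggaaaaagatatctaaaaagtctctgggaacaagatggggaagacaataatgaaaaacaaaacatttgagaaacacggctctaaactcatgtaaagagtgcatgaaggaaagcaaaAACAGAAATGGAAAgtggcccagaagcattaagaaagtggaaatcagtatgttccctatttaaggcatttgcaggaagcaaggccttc
The other 2 are of MTAP and CDKN2B, with each CG in capitals. A CG occurred in 93.9% of all promoters, 11 times in the median promoter, 11 times in MTAP and 18 times in CDKN2B, and at most 2 times in any of the 13 interferon promoters.
MTAP (chr9:21802386-21802635, plus strand): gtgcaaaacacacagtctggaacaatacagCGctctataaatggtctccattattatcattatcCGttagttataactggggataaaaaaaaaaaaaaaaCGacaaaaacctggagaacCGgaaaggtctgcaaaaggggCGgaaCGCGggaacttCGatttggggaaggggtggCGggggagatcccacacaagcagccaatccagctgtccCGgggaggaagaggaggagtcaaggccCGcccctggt
CDKN2B (chr9:22009306-22009555, minus strand): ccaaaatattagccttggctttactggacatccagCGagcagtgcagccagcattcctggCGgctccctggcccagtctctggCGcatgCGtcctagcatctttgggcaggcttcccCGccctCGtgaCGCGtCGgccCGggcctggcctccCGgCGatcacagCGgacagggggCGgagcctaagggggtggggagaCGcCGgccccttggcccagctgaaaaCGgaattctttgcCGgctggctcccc

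The interferon bins were seldom in contact with the lamina. The bins at 21000001, 21100001 and 21300001 had a contact in 1 of 32 cells each (3.12%), the bin at 21200001 in 3 cells (9.38%) and the bin at 21400001 in 8 cells (25.0%). In the gene order, IFNB1 lies toward the low end of this row of bins and IFNA1 and IFNE toward the high end. Of the 160 values of the 5 bins in 32 cells, 14 were contacts, 50 had reads but an OE under 1, and 96 had no reads. The last bin held 8 of the 14 contacts.

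The contact share of the 5 bins was 8.75% ± 15.2 (SD, n = 32), with a median of 0% and a highest value of 60.0% in cell 18. It was 9.66% ± 15.7 (SD, n = 29) without the 3 shallow cells. No contact was seen in 22 cells, 1 bin was in contact in 7 cells, 2 bins in 2 cells and 3 bins in 1 cell. The mean OE of the 5 bins was 0.311 ± 0.386 (SD, n = 32), from 0 to 1.62 with a median of 0.221. In all cells together, 268 reads were recovered where 749 were expected. Among contacts of these bins the lowest OE values were 1.016 (cell 25, 2 reads) and 1.018 (cell 1, 8 reads), and the highest values that missed the limit were 0.998 (cell 4, 8 reads) and 0.995 (cell 7, 5 reads).

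**Figure D1:**
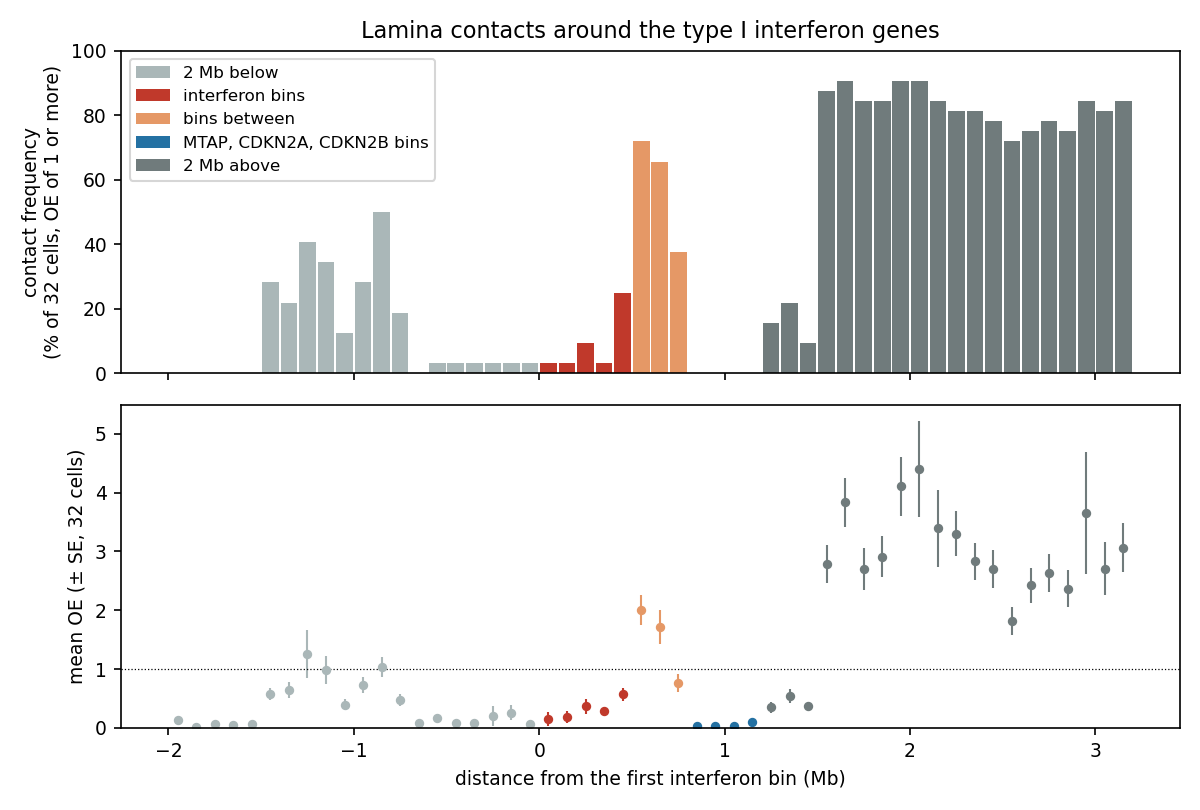
Contact frequency (top, percent of 32 cells with an OE of 1 or more) and mean OE (bottom, points with bars of 1 SE over 32 cells) of 52 bins of 100 kb, against the distance from the first interferon bin in Mb, coloured by region. The interferon bins lie at 3.12 to 25.0%, the MTAP, CDKN2A and CDKN2B bins at 0%, the first 2 bins between them at 71.9 and 65.6%, and 17 bins of the 2 Mb above at 71.9 to 90.6%.

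For single bins, an exact Poisson-binomial test (two-sided) set the cells in contact against the number that the cells' own contact shares give, with Benjamini-Hochberg adjustment over 26584 bins. About 8.42 cells in contact were expected for a bin. Over the genome 54.5% of the bins were called in contact less often and 30.3% more often than that. The first 4 interferon bins were called less often (adjusted p = 0.00165 for the bins with 1 cell and 0.0375 for the bin with 3 cells), and the fifth was not called (8 cells, adjusted p = 1). By this test 0 of the 5 bins were in contact more often, also at an unadjusted p under 0.05. With 4 of 5 called less often against 54.5% of all bins, the interferon bins lay among many bins of this kind. Without the 3 shallow cells the same numbers of interferon bins were called, 4 less often and 0 more often, against 54.6% and 31.3% of all bins. The count of 4 depended on other choices. With an OE limit of 0.5 and after thinning to equal reads, 2 interferon bins were called less often. With any read counted as a contact, 1 was called less often and 1 more often. The share of all bins called under these choices is not given here, so the changes cannot be read as particular to the interferon bins. Of 26139 stretches of 5 adjacent bins in the genome, 48.7% had a contact share at or below that of the interferon bins, and on 9:22 it was 54.2%.

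The MTAP, CDKN2A and CDKN2B bins were never in contact. Each of the 4 bins had 0 contacts in 32 cells, which allows a contact frequency of up to 9.38%, with counting error only. Without the 3 shallow cells, which can show little, the limit was 10.3%. The highest OE in any cell was 0.739, 0.318, 0.287 and 0.650 from the first to the fourth bin, and the median was 0 in each. Their mean OE was 0.0490 ± 0.0687 (SD, n = 32), and 39 reads were recovered where 621 were expected. Reads were found in 3, 4, 5 and 10 cells from the first to the fourth bin. All 4 bins were called in contact less often (adjusted p = 0.000146, Poisson-binomial test), against 54.5% of all bins and 60.9% of those on 9:22. Bins without a contact made up 42.0% of the genome and had a median mean OE of 0.0218, so the level in these 4 bins was not below that of such bins elsewhere. A stretch of 4 adjacent bins without any contact was found at 29.4% of positions in the genome and at 36.8% on 9:22.

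Against the MTAP, CDKN2A and CDKN2B bins of the same cell, the interferon bins had contacts in 10 cells, most of them in the bin at 21400001. The difference in contact share was 8.75 percentage points ± 15.2 (SD, n = 32), with the interferon bins higher in 10 cells and equal in 22 (two-sided sign-flip permutation test over cells, p = 0.0022, adjusted p = 0.00257 over 7 comparisons). Both groups overlap at 0%, the value of the MTAP, CDKN2A and CDKN2B bins in all 32 cells, so no difference could be below 0 and the p rests on the number of cells with an interferon contact. Without the bin at 21400001, which borders the contacted stretch described next, contacts were left in 4 cells (5, 18, 25 and 29). The difference was then 4.69 points ± 13.4 (SD, n = 32) and did not pass (permutation test, adjusted p = 0.126), and with 4 cells that differ no smaller p than about this is possible. With an OE limit of 2 the difference was 2.50 points and did not pass (permutation test, adjusted p = 0.563). Only cells 5 and 18 had such values in the interferon bins, and with 2 cells that differ this test cannot pass. Adjusted p ranged from 2.8e-05 to 0.563 over the planned settings. Reads were found in the interferon bins of 25 cells and in the MTAP, CDKN2A and CDKN2B bins of 14 cells, at 0.358 and 0.0628 times the expected number.

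**Figure D2:**
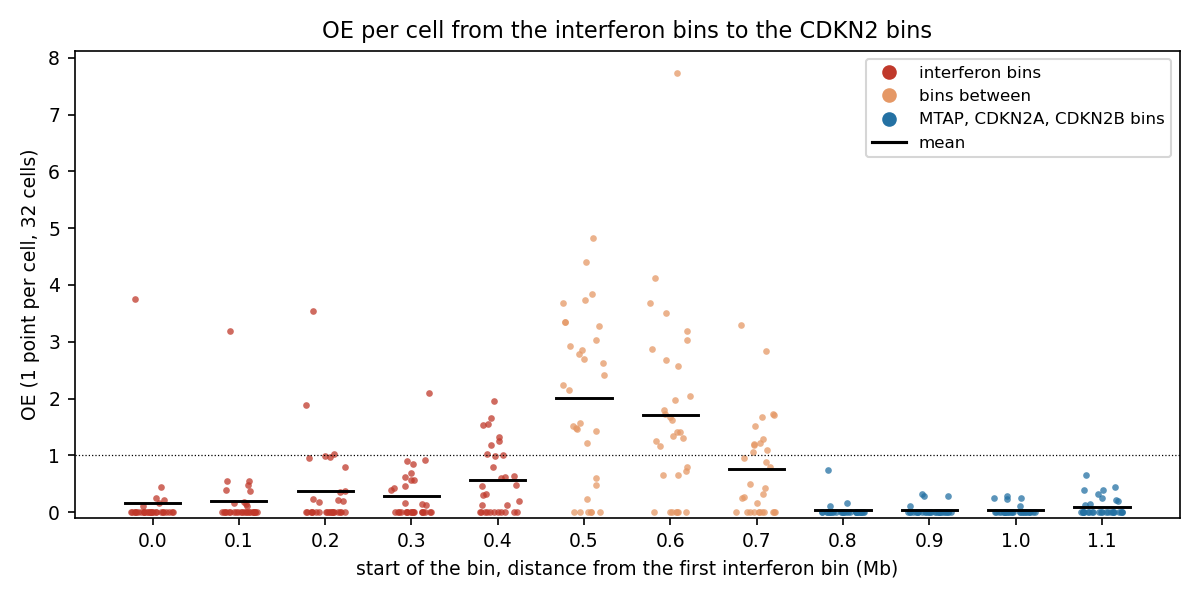
OE of each of 32 cells (points) and the mean (black line) for the 12 bins from the first interferon bin to the last bin of MTAP, CDKN2A and CDKN2B, placed by the distance of the bin's start from the first interferon bin in Mb; the dotted line marks an OE of 1. In the first 2 interferon bins 1 point lies above the line (cell 5, OE 3.75 and 3.19), and no point of the last 4 bins reaches it.

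A narrow contacted stretch separated the gene regions. The bin at 21500001, next to the last interferon bin, was in contact in 23 of 32 cells (71.9%) and the bin at 21600001 in 21 cells (65.6%). The OE in these bins ran from 0 to 4.83 with a median of 2.20, and from 0 to 7.74 with a median of 1.41. Both were called in contact more often (adjusted p = 4.9e-07 and 1.92e-05, Poisson-binomial test, against 30.3% of all bins). The bin at 21700001 was in contact in 12 cells (37.5%) and was not called (adjusted p = 0.237). Both called bins, from 21500001 to 21700000, form the nearest stretch in which at least 50% of cells touched each bin. From the bin at 21700001 to the first MTAP bin the number of cells in contact went from 12 to 0. No regional test of these 3 bins was planned, and none is given.

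Contact in this stretch was variable between cells. All 3 bins were in contact in 10 cells, 2 in 11 cells, 1 in 4 cells and none in 7 cells. The 7 cells were the 3 shallow cells and 4 others with 40279 to 210885 reads. Cell 28, with 210885 reads and a contact share of 33.9% over the genome, had no contact in the stretch although 85.0% of its bins in the 2 Mb above were in contact.

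Most of the deeper cells contacted the stretch at 21500001 to 21800000, 25 of 29 (86.2%). All 10 cells with an interferon contact were among these 25, which is a description and close to the share of the deeper cells as a whole. The 10 cells had 79421 to 258225 reads with a median of 145120, and the 19 deeper cells without an interferon contact had 40279 to 240381 with a median of 126621. The part of depth in this was not tested. The contacts formed 11 uninterrupted runs of 0.1 to 0.6 Mb, and 8 of the 11 ran on into the stretch at 21500001. Among the 29 deeper cells, Pearson's r of the mean log2(OE + 0.1) of the interferon bins was 0.64 with that of the stretch, 0.64 with the 2 Mb below, 0.42 with the 2 Mb above and 0.20 with the MTAP, CDKN2A and CDKN2B bins. It was 0.41 with log10 reads, and these values share the depth of the cell and are given as a description.

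Different cells touched the lamina at different ends of the interferon region. These cells were chosen after their values were seen. In cell 5, with 85254 reads, 6 adjacent bins at 20600001 to 21200000 were in contact with OE values of 1.82 to 5.48, and none of these bins was in contact in any other cell. The highest mean OE of these 6 bins in another cell was 0.283. Cell 5 held 73 of the 150 reads recovered there from all cells. FOCAD, which encodes a focal adhesion protein, and HACD4, an enzyme of fatty acid elongation, come before IFNB1 in the gene order, and the first 2 interferon bins belong to this run. In cell 18, with 91895 reads, the last 3 interferon bins had OE values of 3.54, 2.101 and 1.65 and were joined to all 3 bins of the stretch, with a run of 0.6 Mb and a mean OE of 3.86. Cell 18 had no reads at 20600001 to 21200000, and cell 5 had no contact in the last 3 interferon bins (mean OE 0.389).

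**Figure D3:**
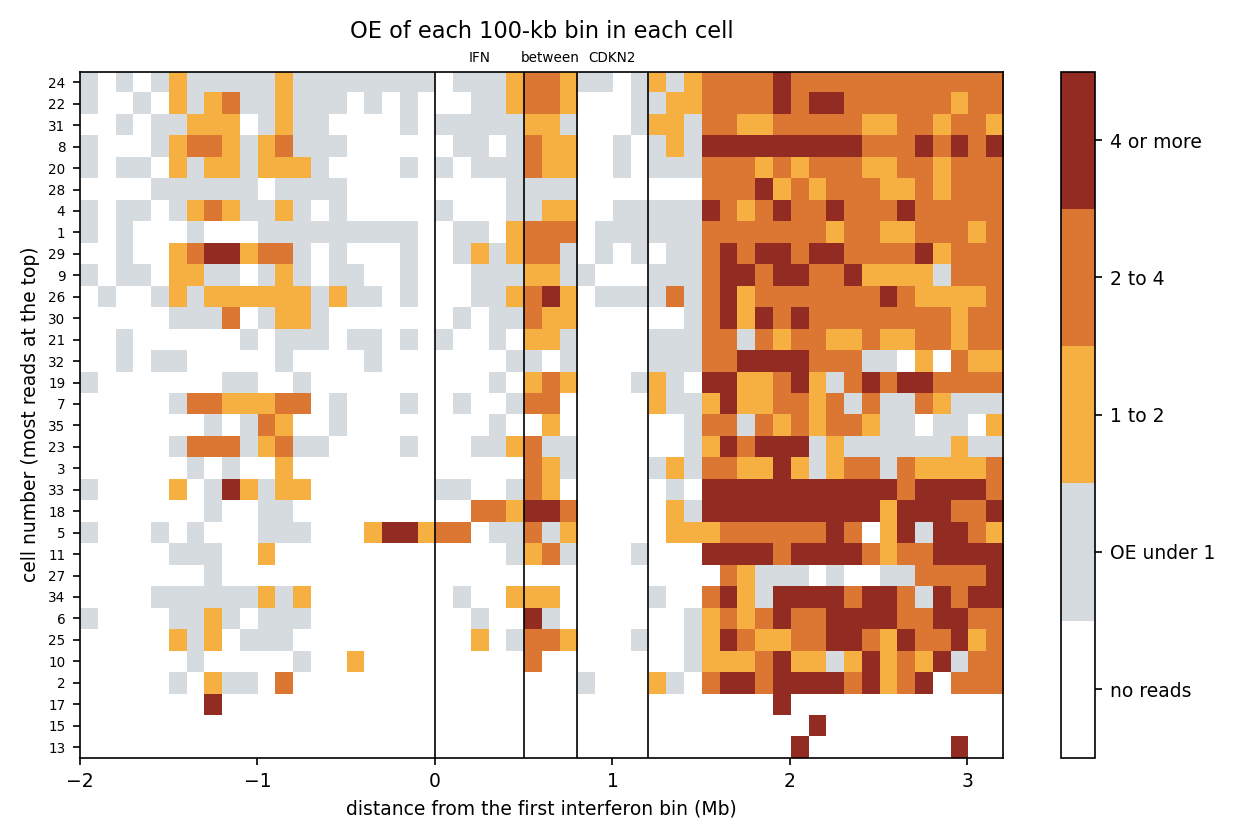
OE of each 100-kb bin (columns, by distance from the first interferon bin in Mb) in each of 32 cells (rows, most reads at the top), in 5 classes from no reads (white) to 4 or more (dark red); black lines bound the interferon bins, the bins between and the MTAP, CDKN2A and CDKN2B bins. Cell 5 shows a run of 6 contacted bins that ends in the interferon region, cell 18 a run of 6 that starts there, and the MTAP, CDKN2A and CDKN2B bins show no contact in any row.

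The surroundings of the gene regions differed on both sides. The 2 Mb above had a contact share of 72.5% ± 25.9 (SD, n = 32), from 5.00 to 95.0% with a median of 85.0%, and 79.3% ± 15.2 (SD, n = 29) without the shallow cells. Of its 20 bins, 17 were called in contact more often and 1 less often, against 30.3% and 54.5% of all bins. The bins at 22200001, 22300001 and 22400001, above CDKN2B, were in contact in 5, 7 and 3 cells. From 22500001 on, the contact frequency was 71.9 to 90.6% per bin, and this stretch of at least 50% ran to 25600000. Its first bin had 28 cells in contact against 3 in the bin before it. DMRTA1, which encodes a DMRT-family transcription factor, is the next protein-coding gene after CDKN2B in the gene order.

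The 2 Mb below had a contact share of 12.7% ± 12.2 (SD, n = 32), from 0 to 40% with a median of 10%. Of its 20 bins, 1 was called in contact more often and 12 less often. Of all bins 30.3% were called more often and 54.5% less often, and of those on 9:22 25.6% and 60.9%. The count called less often was thus near the share of all bins. The bin at 20100001 had the highest frequency, 50.0%, and 6 bins were never in contact, the first of them at 19000001. The 8 bins at 19500001 to 20300000 were in contact in 4 to 16 cells and the 7 bins at 20300001 to 21000000 in at most 1 cell each. The last 7 bins thus had counts like those of the first 2 interferon bins, 1 cell each.

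The interferon bins had a smaller contact share than the 2 Mb above, with a difference of -63.8 points ± 26.4 (SD, n = 32). They were lower in each of the 32 cells (permutation test with sign flips, p = 1e-05, which is the smallest value possible with these resamples, adjusted p = 1.75e-05). Against the 2 Mb below, the difference was -3.91 points ± 17.9, lower in 17 cells, higher in 7 and equal in 8, and did not pass (permutation test, adjusted p = 0.251). Cell 18 and the last interferon bin decided that call. Without cell 18 the difference was -5.97 points and passed (permutation test, adjusted p = 0.0259). It also passed without the interferon bin at 21400001, at -7.97 points (permutation test, adjusted p = 0.0214). Over the planned settings adjusted p ran from 0.261 to 0.888, and the sign turned with any read counted as a contact (0.625 points).

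The MTAP, CDKN2A and CDKN2B bins had a smaller contact share than the mean of either flank. The 2 Mb below is a mean over unlike bins, and 6 of its 20 bins were never in contact either. The difference was -12.7 points ± 12.2 against the 2 Mb below (lower in 23 cells, equal in 9) and -72.5 points ± 25.9 against the 2 Mb above (lower in each of the 32 cells). Both differences passed (sign-flip permutation test, adjusted p = 1.75e-05 for each, SD over n = 32 cells). The share of the MTAP, CDKN2A and CDKN2B bins was 0% in every cell, so no difference could be above 0. Each p thus rests on the number of cells with a contact in the flank.

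Both gene regions had smaller mean contact shares than the rest of 9:22, the 1298 bins outside 19000001 to 24200000. The rest had a share of 21.4% ± 8.10 (SD, n = 32), a mean over unlike bins. Its median bin was in contact in 3.12% of cells, as was the median interferon bin, and 49.5% of its bins were never in contact. The comparison of means does not set either region apart from most bins of 9:22. For the interferon bins the difference was -12.7 points ± 15.0, lower in 29 cells and higher in 3 (permutation test, adjusted p = 0.000168). For the MTAP, CDKN2A and CDKN2B bins it was -21.4 points ± 8.10, lower in every one of 32 cells (permutation test, adjusted p = 1.75e-05). Their share was 0% in every cell, so here too no difference could be above 0. The difference of the interferon bins depended on the limit. It was -6.90 points with an OE limit of 0.5 (permutation test, adjusted p = 0.0727) and turned to 1.66 points with any read counted (permutation test, adjusted p = 0.798), within a range from 5.25e-05 to 0.798 over the settings.

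**Figure D4:**
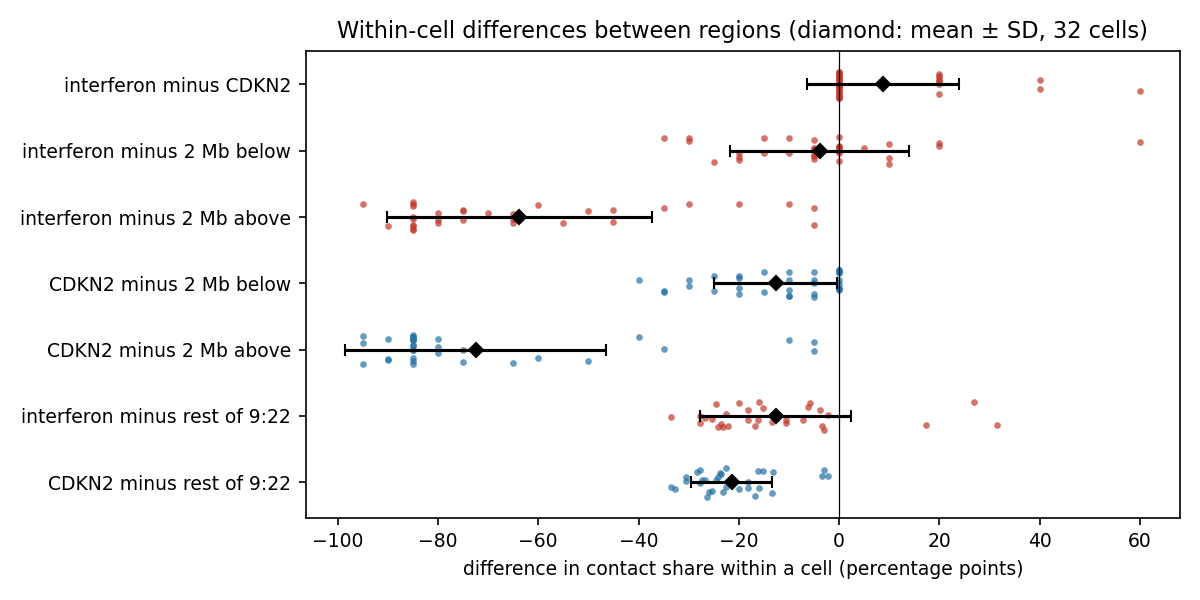
Differences in contact share between regions within each of 32 cells (points, in percentage points; red for the interferon bins and blue for the MTAP, CDKN2A and CDKN2B bins minus the region named), with the mean and SD (diamond and bar). The interferon bins lie above the MTAP, CDKN2A and CDKN2B bins in 10 cells, and every point against the 2 Mb above is below 0.

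Outside 9:22, the bins whose values over the 29 deeper cells were most like the mean of the interferon bins, taking 1 per chromosome, lay on X at 137900001 to 138000000 (Pearson's r of log2(OE + 0.1) of 0.72, contact frequency 15.6%), on chromosome 5 at 124200001 to 124300000 (0.68, 6.25%) and on chromosome 7 at 91600001 to 91700000 (0.68, 0%). These are the highest of all bins tried, they share the depth of the cells, and they are given as a description.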

How the data were processed

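Each deposited value is a ratio of observed to expected reads per 100-kb bin of 1 cell, as the authors' table gives it. Cutadapt, Bowtie2 2.1.0 and build hg19 are named in the submitters' processing notes. The making of the expectation and the handling of duplicates are not stated in the sources used. Of 30376 bins in the table, 26584 had values in all cells, and the other 3792 were left out. The 3 samples without a matching column were not analysed here.

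The values of a bin are whole multiples of what 1 read of that cell is worth, and whole reads were recovered from these steps (100% within 0.01 reads, as the method ensures); a bin whose reads share a factor comes out too low. Reads after PCR do not count molecules, so read numbers describe depth, and limits for a count of 0 cover counting error only.

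The members, regions and tests were chosen with earlier results of these data known. Named were the 7 member genes, all bins of the gene regions, the highest and lowest bin of each flank, the stretch of at least 50% nearest the interferon bins, and the 3 most alike bins elsewhere; other bins and cells were chosen after their values were seen. Regions were compared by sign-flip permutation tests over cells (100000 resamples, Benjamini-Hochberg over 7 comparisons). Bins were tested by an exact Poisson-binomial test, with p as 2 times the smaller tail. Alternatives were OE limits of 0.5, 2 and any read, leaving out the 3 cells under 10000 reads or the 8 sparsest cells, thinning to 40279 reads, flanks of 1 Mb and mean log2(OE + 0.1); leaving out each cell in turn, or the interferon bin at 21400001, was added after the data were seen. Scripts were tested on simulated data. Bin values of receptor and signalling genes elsewhere were not analysed here, because the gene table used is of another build. Python 3.11.15 and numpy 2.4.6 were used.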

Additional observations from a re-analysis of the deposited data

How the results depend on the processing

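Of 71 values recomputed under the planned settings, 66 stayed as reported. For differences this means the same sign and call, and for counts of bins called more often a count within 1.5 times. Counts of bins called less often are not among the 71. The exceptions were all of the interferon bins. With an OE limit of 2 the difference of the interferon bins from the MTAP, CDKN2A and CDKN2B bins was 2.50 points. It no longer passed, and with the 2 cells that differed it could not. With a limit of 0.5 the difference of the interferon bins from the rest of 9:22 was -6.90 points and no longer passed. With any read counted as a contact, the differences from the 2 Mb below and from the rest of 9:22 turned to 0.625 and 1.66 points, and 1 interferon bin in place of 0 was called in contact more often. The cause was not tested. Without the interferon bin at 21400001, chosen after the data were seen, the difference from the MTAP, CDKN2A and CDKN2B bins was 4.69 points. It no longer passed, and with the 4 cells that differed it could not. The difference from the 2 Mb below was then -7.97 points and passed. The number of interferon bins called less often, 4 in the values reported, ran from 1 with any read counted to 5 with an OE limit of 2, and was 2 both with a limit of 0.5 and after thinning. For the MTAP, CDKN2A and CDKN2B bins it was 4 in the values reported and 3 with any read counted. For the bins of the flanks and between it was 13, and ran from 7 with any read counted to 18 with an OE limit of 2. The share of all bins called at the other OE limits and after thinning is not given here. These changes in counts thus cannot be read as particular to the bins named.

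Leaving out each cell in turn changed 1 of 320 values, with bins counted only where called more often. This was the difference of the interferon bins from the 2 Mb below without cell 18. Some of the 320 values could not change. The share of the MTAP, CDKN2A and CDKN2B bins was 0% in every cell. Leaving out a cell could thus not turn the sign of a difference that involves them, nor raise their count called more often. The interferon bins differed from the MTAP, CDKN2A and CDKN2B bins by 7.10 to 9.03 points, from the 2 Mb below by -5.97 to -2.90, from the 2 Mb above by -65.6 to -62.7 and from the rest of 9:22 by -14.1 to -12.0. For the MTAP, CDKN2A and CDKN2B bins these ranges were -13.1 to -11.8, -74.7 to -71.8 and -22.0 to -21.02. The bins of the flanks and between called more often stayed at 20, and 0 interferon bins and 0 of the 4 MTAP, CDKN2A and CDKN2B bins were called more often. The number of interferon bins called less often fell from 4 to 3 without cell 20 and also without cell 24. It ran from 12 to 14 for the bins of the flanks and between and stayed at 4 for the MTAP, CDKN2A and CDKN2B bins. The share of all bins called with a cell left out is not given here. In the 3 shallow cells the OE of 1 read was 13.7 to 24.9 in the median bin, and depth limits what these cells can show.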
